A study of Mus musculus with 6 samples.

Results

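The genes described here are 34 genes of the liver's endothelium, the cells that line its blood vessels, as they were counted in RNA-seq libraries of primary hepatocytes. They were chosen by symbol, and all 34 were found among the 34745 genes of the count tables. By role they comprised 9 sinusoidal markers, 16 general endothelial markers, 5 angiocrine ligands, which are signals that endothelial cells send to hepatocytes, and 4 endothelial transcription factors. All 34 passed the filter on low counts that left 14417 genes for testing.

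The hepatocytes came from 6 male mice aged 12 weeks, 3 in each of 2 groups, with 1 library per mouse. FOXA2f/f+CCl4 mice are homozygous for a floxed Foxa2 allele, which Cre can excise, and were given the control virus AAV8-TBG-Control. FOXA2H-KO+CCl4 mice have the same floxed alleles but were given AAV8-TBG-Cre. In both groups the virus was injected 2 weeks before the first dose of carbon tetrachloride (CCl4), a hepatotoxin that produces liver fibrosis, which was then injected at 0.25 ml/kg 2 times a week for 4 weeks. Every library is therefore from a floxed, virus-treated and CCl4-treated mouse, and no untreated liver is in the comparison. The TBG promoter drives Cre in hepatocytes. Which cells of each preparation the endothelial transcripts came from was not measured. The hepatocytes were prepared by collagenase perfusion, sieving and a slow centrifugation whose pellet was kept and washed, which favours hepatocytes over the lighter non-parenchymal cells, and no step based on an endothelial marker is stated.

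Liver sinusoids are lined by a specialised endothelium that is perforated by fenestrae, lacks an organised basement membrane and clears waste molecules from blood through scavenger receptors such as the stabilins. Sinusoidal cells also instruct the hepatocytes next to them: BMP2 and BMP6 drive hepatocyte production of the iron hormone hepcidin, and WNT2, WNT9B and RSPO3, released mostly around the central veins, keep up the pericentral gene programme. In chronic injury this endothelium can lose its fenestrae and take on features of ordinary capillaries.

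Total counts ran from 20983455 to 28327765 per library. Albumin (Alb), the defining product of the labelled cell type, took between 9.38% and 11.02% of all counts. Foxa2 itself had 19.0, 13.5 and 16.4 CPM (counts scaled to library size) in FOXA2f/f replicates 1, 2 and 4, and 1.03, 0.762 and 1.62 CPM in FOXA2H-KO replicates 1, 2 and 4. The 3 FOXA2H-KO libraries were all far below the others, and Foxa2 was the only gene called in the whole comparison (log2 fold change -3.85 ± 0.306 SE, edgeR quasi-likelihood test, adjusted p = 0.0313). Here a gene was called at an adjusted p under 0.05 and a fold change of at least 2. Libraries of FOXA2f/f replicates 2 and 4 stood apart from the rest for the endothelial genes, so the log2 fold changes of the list, the summed levels and the pathway genes that rest on them are also given without them.

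Promoter sequences were at hand for 20 of the 34 genes, in 24 windows from RefSeq on build GRCm38.p6. Those shown are the 250 bases upstream of the annotated start, written 5′ to 3′ on the strand of the gene. Flt1, Tie1 and Eng are shown as vascular receptors whose windows hold GGAAGT, the core bound by ETS-family factors such as ERG, or its reverse complement. Capitals mark it. The receptors Tek, Flt4 and Robo4 had the same highest and lowest libraries as these, but their windows do not hold it, whereas that of Kdr does.
Flt1 (chr5:147726012-147726261, minus strand): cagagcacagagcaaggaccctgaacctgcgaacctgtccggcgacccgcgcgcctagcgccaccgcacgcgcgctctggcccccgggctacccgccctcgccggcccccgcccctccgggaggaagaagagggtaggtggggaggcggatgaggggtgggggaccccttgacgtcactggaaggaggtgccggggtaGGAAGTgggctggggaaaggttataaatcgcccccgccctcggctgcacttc
Tie1 (chr4:118489850-118490099, minus strand): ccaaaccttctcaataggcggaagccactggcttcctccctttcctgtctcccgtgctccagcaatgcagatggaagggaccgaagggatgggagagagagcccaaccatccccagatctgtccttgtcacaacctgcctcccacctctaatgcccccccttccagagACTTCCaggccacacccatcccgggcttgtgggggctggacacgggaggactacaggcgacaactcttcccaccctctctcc
Eng (chr2:32646345-32646594, plus strand): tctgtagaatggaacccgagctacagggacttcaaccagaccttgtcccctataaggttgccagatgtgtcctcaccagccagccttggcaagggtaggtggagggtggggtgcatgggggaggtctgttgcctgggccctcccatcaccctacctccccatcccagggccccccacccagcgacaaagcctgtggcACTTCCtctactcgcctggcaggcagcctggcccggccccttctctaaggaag
Stab1 is shown as a sinusoidal scavenger receptor, with TGCTGA, a recognition element of MAF-family factors, in capitals.
Stab1 (chr14:31168642-31168891, minus strand): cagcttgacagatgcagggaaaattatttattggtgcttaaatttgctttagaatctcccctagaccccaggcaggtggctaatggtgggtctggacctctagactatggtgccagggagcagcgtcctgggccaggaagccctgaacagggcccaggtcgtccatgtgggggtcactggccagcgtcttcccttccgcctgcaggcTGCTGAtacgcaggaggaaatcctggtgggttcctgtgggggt
Wnt2 and Dll4 are shown as the ligands with the highest and the lowest log2 fold change of all 34 genes, and hold no capitals because none of the motifs searched lies in these windows.
Wnt2 (chr6:18030446-18030695, minus strand): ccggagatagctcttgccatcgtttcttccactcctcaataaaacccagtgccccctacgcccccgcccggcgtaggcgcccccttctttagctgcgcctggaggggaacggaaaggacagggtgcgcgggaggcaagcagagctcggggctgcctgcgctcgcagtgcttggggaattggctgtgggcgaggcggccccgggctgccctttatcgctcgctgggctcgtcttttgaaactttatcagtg
Dll4 (chr2:119325534-119325783, plus strand): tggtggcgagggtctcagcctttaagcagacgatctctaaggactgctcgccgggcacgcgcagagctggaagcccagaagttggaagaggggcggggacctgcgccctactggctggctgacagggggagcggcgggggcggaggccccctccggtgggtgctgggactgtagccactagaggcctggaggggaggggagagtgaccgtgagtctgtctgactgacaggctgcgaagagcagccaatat

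Motifs were searched on both strands in the 250 bases of each window. The ETS core was found in 29.2% of the 24 endothelial windows and in 19.7% of all 32817 promoter windows, and the MAF element in 25% and 16.1%. The core of SOX factors, searched as ACAAT, was in 29.2% of the endothelial windows and 27.7% of all. A site of GATA factors, with the letters AGATAA, was in 4.17% of the endothelial windows and 9.99% of all promoters. A forkhead site of the kind that FOXA2 binds, searched as TGTTTAC, was in 0 of 24 endothelial windows and 3.16% of all. No motif searched contains another. These matches describe the letters of the windows only.

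All 34 genes gave counts in each of the 6 hepatocyte libraries, from 16 to 6883 per gene and library. Levels of different genes were compared on the authors' FPKM scale, which divides by gene length. The length implied by the FPKM was 3658 bases for Ehd3 and 7310 for Eng, against 6558 and 4048 annotated exonic bases. For Aqp1 both were 2627. The order of genes given here therefore depends on the lengths that the authors used. The gene with the highest level was Aqp1, a water channel of endothelium and bile ducts, at 53.0 ± 35.7 FPKM in FOXA2f/f and 52.6 ± 1.96 in FOXA2H-KO (mean ± SD, n = 3). Next came Ehd3, a membrane trafficking protein of sinusoidal endothelium, at 24.2 ± 20.2 and 26.8 ± 3.29 FPKM. Oit3, Cdh5, Fcgr2b and Eng followed with means over all libraries between 12.4 and 14.9 FPKM, and these neighbours did not differ beyond their spread. At the other end, Nos3, the endothelial nitric oxide synthase, was at 0.371 ± 0.299 and 0.402 ± 0.0848 FPKM, and Emcn, the sialomucin endomucin, at 0.577 ± 0.283 and 0.527 ± 0.0373.

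**Figure D1:**
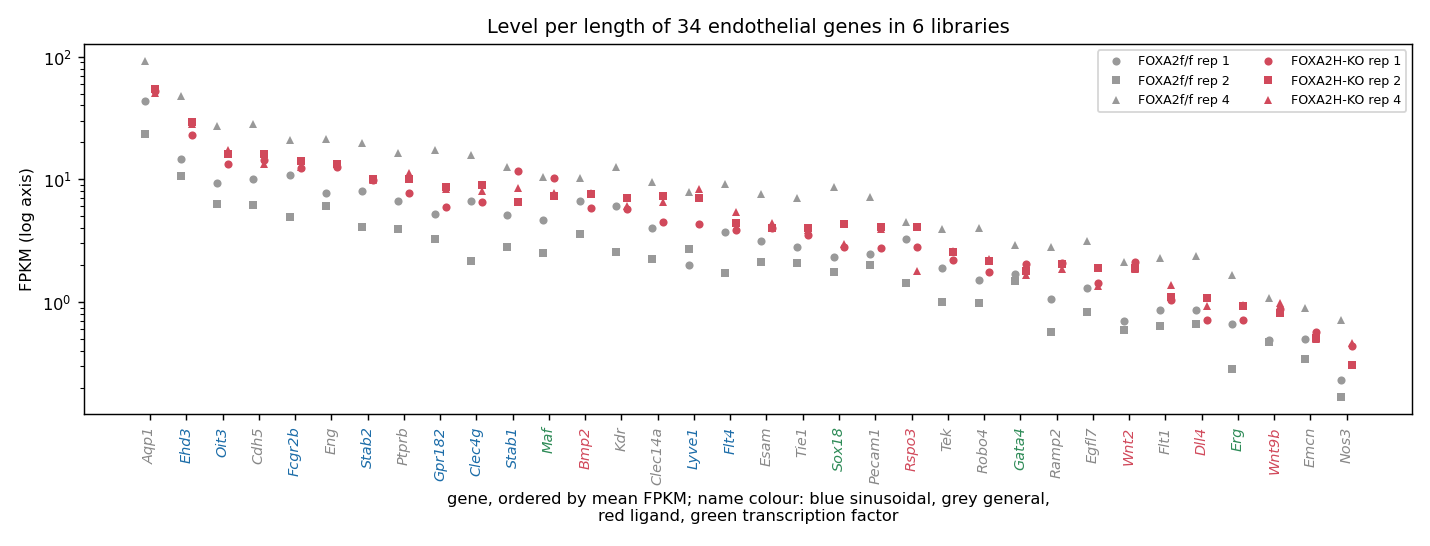
FPKM of each of the 34 genes (log axis) in the 6 libraries, genes ordered by their mean. Levels fell from 52.8 FPKM for Aqp1 to 0.386 for Nos3 (means over 6 libraries), and in most genes the grey triangle of FOXA2f/f replicate 4 is the highest point and the grey square of replicate 2 the lowest.

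The main comparison asked whether endothelial transcripts changed when FOXA2 was lost from hepatocytes of fibrotic livers. No member of the list passed the test: 0 of 34 were called by the edgeR quasi-likelihood test, against 0.00694% of all genes tested, and 0 of 34 had an unadjusted p under 0.05, against 5.17% of all genes. DESeq2 and edgeR's exact test also called 0 of the 34, and called 0.482% and 0.444% of all genes they tested. In 0 of 34 did the 3 libraries of one group lie beyond all 3 of the other, whereas 10.5% of all genes were separated in this way. The log2 fold change of FOXA2H-KO over FOXA2f/f was above 0 in 14 and below 0 in 20 members, with a median of -0.06 (-0.01 over all genes tested), and ranged from -0.56 for Dll4 to 0.74 for Wnt2. The smallest adjusted p in this edgeR fit was 0.952. Fewer endothelial cells in a preparation and less RNA per endothelial cell cannot be told apart in these bulk samples.

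The 95% intervals show what the data could resolve. For 9 genes the interval lay inside a 2-fold change in either direction, namely Fcgr2b, Tek, Tie1, Eng, Esam, Emcn, Aqp1, Bmp2 and Gata4. In the other 25 it reached past 2-fold on at least one side, so that a change of this size was not excluded by the interval. The widest bounds were -1.55 for Sox18 and 1.67 for Lyve1.

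**Figure D2:**
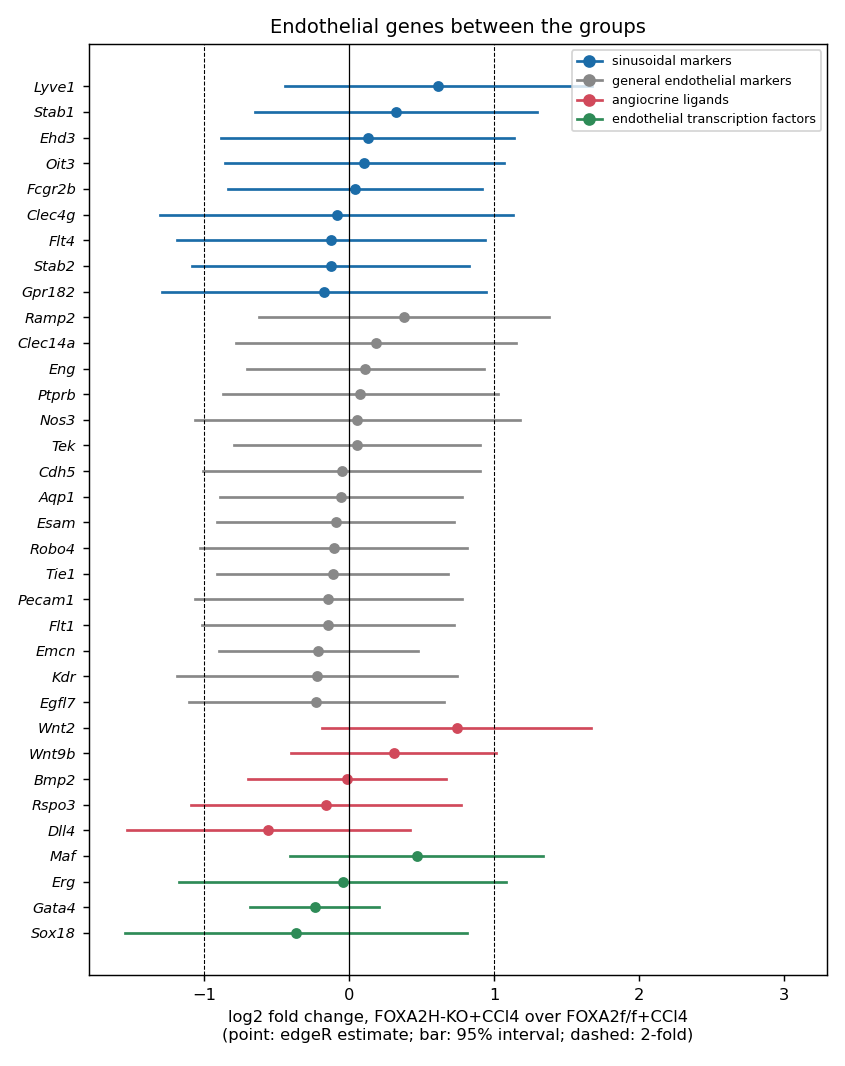
Log2 fold change (FOXA2H-KO+CCl4 over FOXA2f/f+CCl4) of each gene from edgeR, with its 95% interval, coloured by role; dashed lines mark 2-fold. All 34 intervals include 0, and the estimates run from -0.56 (Dll4) to 0.74 (Wnt2).

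The 9 sinusoidal markers showed 5 estimates above and 4 below 0, with a median log2 fold change of 0.04. Values are given from here on as CPM in FOXA2f/f replicates 1, 2 and 4 and then in FOXA2H-KO replicates 1, 2 and 4. Stab2, a scavenger receptor for hyaluronan, was at 89.7, 47.7 and 180.0 CPM in FOXA2f/f and at 88.8, 100.1 and 101.5 in FOXA2H-KO. Stab1, its relative, was at 89.6, 51.8 and 181.6 and at 165.4, 102.3 and 136.5 CPM. In both stabilins the highest and the lowest library were FOXA2f/f libraries, with the FOXA2H-KO libraries in between. The log2 fold change was -0.13 ± 0.41 (SE) for Stab2 and 0.32 ± 0.42 for Stab1 (edgeR adjusted p = 0.993 and 0.983).

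Lyve1, a hyaluronan receptor of sinusoidal and lymphatic endothelium, departed from the others of its role. It was at 5.76, 8.12 and 18.6 CPM in FOXA2f/f and at 10.1, 18.0 and 21.9 CPM in FOXA2H-KO. Its highest library was FOXA2H-KO replicate 4 and its lowest FOXA2f/f replicate 1, and the groups overlapped through FOXA2f/f replicate 4. The log2 fold change of 0.61 ± 0.46 (SE) did not pass the edgeR test (adjusted p = 0.983), and the exact permutation test gave p = 0.3, the smallest value of the 34 genes, shared with Wnt2, Wnt9b and Gata4, where 3 against 3 libraries cannot go below 0.1.

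Clec4g (LSECtin, a C-type lectin) spanned the widest range within FOXA2f/f, at 28.3, 9.49 and 55.0 CPM, which is 5.79-fold, against 22.5, 34.2 and 30.9 CPM in FOXA2H-KO. The orphan receptor Gpr182 was at 22.7, 14.9 and 61.3 and at 21.1, 33.9 and 33.1 CPM. Flt4, the VEGF-C receptor VEGFR3, was at 35.3, 17.1 and 72.0 and at 29.7, 37.3 and 47.3 CPM. In all 3 genes FOXA2f/f replicate 4 exceeded every FOXA2H-KO library and replicate 2 was below every one of them. Oit3, Ehd3 and the inhibitory Fc receptor Fcgr2b had the same order at the ends, and their log2 fold changes were 0.10 ± 0.41, 0.13 ± 0.44 and 0.04 ± 0.38 (SE).

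The 16 general endothelial markers were the most uniform of the 4 roles. FOXA2f/f replicate 4 was the highest and FOXA2f/f replicate 2 the lowest of the 6 libraries for all 16. Cdh5 (VE-cadherin, the adhesion molecule of endothelial junctions) was at 44.3, 28.4 and 101.0 CPM in FOXA2f/f and at 50.9, 63.1 and 53.8 in FOXA2H-KO. Pecam1, another junction protein, was at 24.4, 20.7 and 58.1 and at 22.0, 36.0 and 35.6 CPM. Kdr, the main VEGF-A receptor VEGFR2, was at 64.7, 28.5 and 110.2 and at 49.4, 66.4 and 59.0 CPM. For these 3 genes the FOXA2H-KO libraries lay close to each other inside the wider FOXA2f/f range, and the log2 fold changes were -0.05 ± 0.41, -0.15 ± 0.40 and -0.22 ± 0.42 (SE).

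Among receptors of the vessel wall, Flt1 (VEGFR1) had a log2 fold change of -0.15 ± 0.38 (SE), the angiopoietin receptor Tek 0.05 ± 0.37, its partner Tie1 -0.12 ± 0.34, and Eng, a co-receptor for BMP9, 0.11 ± 0.35. The guidance receptor Robo4 was at -0.11 ± 0.40 and the phosphatase Ptprb, which opposes TEK signalling, at 0.08 ± 0.41. The junction protein Esam, the lectin-like Clec14a, Egfl7 and Emcn were at -0.10, 0.18, -0.23 and -0.21. The highest estimate of the role was 0.38 ± 0.43 for Ramp2, the partner protein of the adrenomedullin receptor, at 6.49, 3.67 and 14.3 CPM in FOXA2f/f and 10.4, 11.3 and 10.4 in FOXA2H-KO. Again the 2 extreme libraries were FOXA2f/f replicates 2 and 4. The median of the role was -0.08, with 6 estimates above and 10 below 0 (SE between 0.295 and 0.482). Of the exonic bases of Ramp2, 33.4% are shared with another annotated gene, as are 32.3% of Nos3, 13.1% of Rspo3 and 11.2% of Egfl7, so their counts are less certain than those of the 22 genes with no shared base.

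The 5 angiocrine ligands had the highest and the lowest estimates of the whole list. Wnt2 was at 1.72, 1.535 and 4.26 CPM in FOXA2f/f and at 4.27, 4.21 and 4.255 CPM in FOXA2H-KO. FOXA2f/f replicates 1 and 2 were low, while FOXA2f/f replicate 4 was level with the 3 FOXA2H-KO libraries. The log2 fold change was 0.74 ± 0.40 (SE, 95% interval -0.19 to 1.67, edgeR adjusted p = 0.952). Counts of Wnt2 were 40, 28 and 134 in FOXA2f/f and 116, 105 and 92 in FOXA2H-KO.

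Wnt9b was at 2.45, 2.47 and 4.42 CPM and at 3.53, 3.61 and 4.49 CPM, for which edgeR gave 0.31 ± 0.30 (log2 fold change ± SE). As for Wnt2, FOXA2f/f replicates 1 and 2 were the low libraries, and replicate 4 lay among the FOXA2H-KO values. Rspo3, which amplifies Wnt signals through LGR receptors, was at 8.505, 3.89 and 9.73 CPM and at 5.92, 9.58 and 4.35 CPM, with an estimate of -0.16 ± 0.40. Rspo3 varied nearly as much within FOXA2H-KO (2.21-fold) as within FOXA2f/f (2.498-fold). Bmp2, the inducer of hepcidin, was at 26.1, 14.8 and 32.5 CPM and at 18.4, 26.7 and 27.8 CPM, with an estimate of -0.01 ± 0.29.

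Dll4, a Notch ligand of endothelium that restrains vessel sprouting, had the lowest estimate of the list. It was at 3.69, 2.96 and 8.33 CPM in FOXA2f/f and at 2.46, 4.13 and 3.65 CPM in FOXA2H-KO. FOXA2f/f replicate 4 was far above the rest, and the lowest library was FOXA2H-KO replicate 1. The log2 fold change was -0.56 ± 0.42 (SE, 95% interval -1.54 to 0.42, edgeR adjusted p = 0.983).

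The 4 transcription factors had a median log2 fold change of -0.14. Maf, which helps to keep the sinusoidal identity and is also expressed by macrophages, was at 48.8, 27.6 and 90.3 CPM in FOXA2f/f and at 87.4, 68.6 and 74.7 in FOXA2H-KO (0.47 ± 0.38, SE). Gata4, a regulator of sinusoidal specification that hepatocytes and stellate cells also express, was at 12.8, 11.8 and 18.1 CPM and at 12.6, 12.1 and 11.7 CPM (-0.24 ± 0.19). Gata4 thus had the narrowest range of the 34 genes within FOXA2f/f, 1.52-fold, and the smallest SE. Erg, an ETS factor that maintains endothelial identity, was at 6.66, 2.96 and 13.7 and at 5.78, 8.34 and 8.65 CPM (-0.05 ± 0.48). Sox18, a factor of vascular and lymphatic development, was at 4.12, 3.29 and 12.7 and at 4.05, 6.82 and 4.86 CPM (-0.37 ± 0.51). Erg and Sox18 followed the pattern of the vascular markers, with FOXA2f/f replicate 4 highest and replicate 2 lowest.

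**Figure D3:**
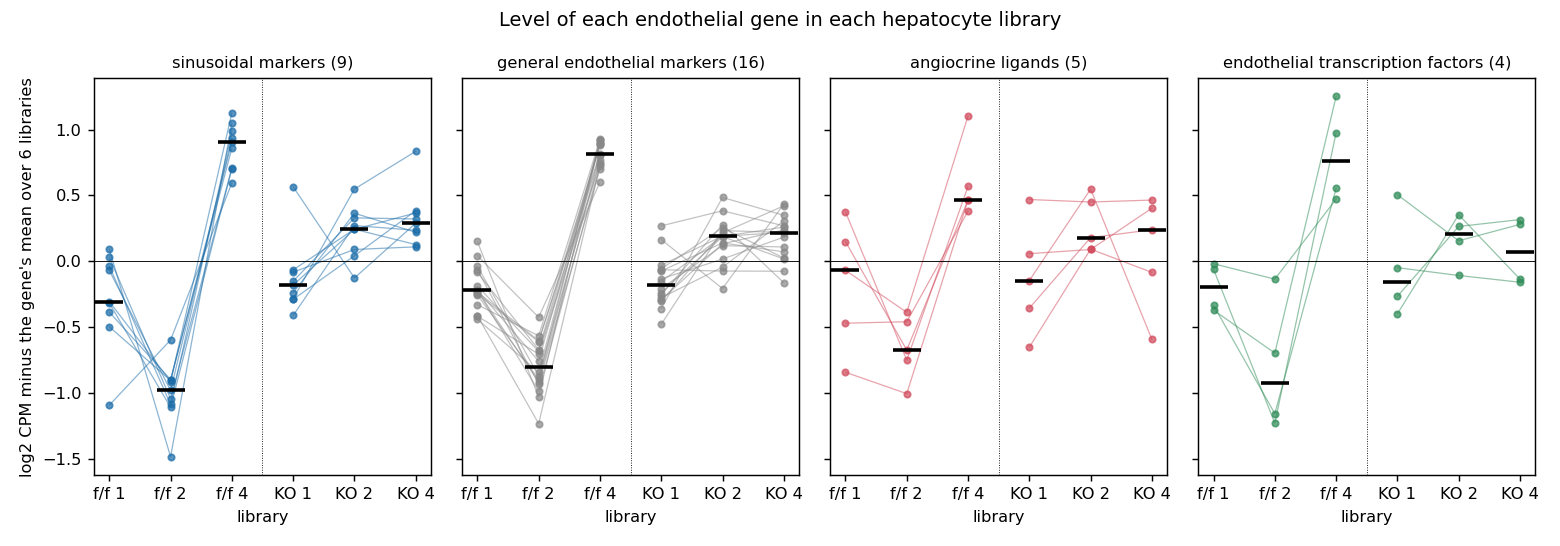
Log2 CPM of each gene minus its own mean over the 6 libraries, by role; points are genes, thin lines join the libraries of one gene within a group, black bars are medians. FOXA2f/f replicate 4 stands highest in 31 of the 34 genes and replicate 2 lowest in 30, and the FOXA2H-KO libraries lie between them.

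The endothelial genes therefore differed more between FOXA2f/f libraries than between the groups. With 1 library per mouse, mouse and hepatocyte preparation cannot be told apart in this spread. FOXA2f/f replicate 4 was the highest library for 31 of 34 members (19.5% of all genes tested), all but Lyve1, Wnt2 and Wnt9b, and FOXA2f/f replicate 2 the lowest for 30 (29.2% of all genes), all but Lyve1, Wnt9b, Dll4 and Gata4. Both held for 29 members, or 85.3%, against 12.2% of all genes. The median ratio of the highest to the lowest library was 3.25-fold within FOXA2f/f and 1.45-fold within FOXA2H-KO, where the medians over all genes were 1.49-fold and 1.28-fold. The range was wider within FOXA2f/f for each of the 34 genes and for 10357 of the 14417 genes tested.

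Summed over the list, the CPM of the 34 genes were 1086, 656.8 and 2165 in FOXA2f/f and 1197, 1393 and 1432 in FOXA2H-KO. The means were 1302 ± 776.8 and 1341 ± 126.1 CPM (SD, n = 3), so the difference between groups was far smaller than the spread between FOXA2f/f libraries. The ratio of the FOXA2H-KO to the FOXA2f/f mean was 1.03 with all libraries, 0.825 without FOXA2f/f replicate 2 and 1.54 without FOXA2f/f replicate 4. Sinusoidal markers summed to 450.4, 257.3 and 939.9 CPM and to 531.5, 581.3 and 622.3 CPM. General endothelial markers summed to 520.6, 328.3 and 1031 CPM and to 521.0, 668.1 and 665.4 CPM. Both roles had FOXA2f/f replicate 4 as their highest and replicate 2 as their lowest library, and the sinusoidal sum was between 0.784 and 0.912 of the general sum in FOXA2f/f and between 0.870 and 1.02 in FOXA2H-KO, with overlap between the groups. The ligands summed to between 25.6 and 59.2 CPM in FOXA2f/f and between 34.6 and 48.2 in FOXA2H-KO.

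Markers of other non-parenchymal cells were high and low in the same FOXA2f/f libraries. The 15 Kupffer cell and macrophage markers summed to 1593, 766.8 and 3496 CPM in FOXA2f/f and to 2740, 2438 and 1705 CPM in FOXA2H-KO, and 12 of the 15 were highest in FOXA2f/f replicate 4 and lowest in replicate 2. Those of stellate cells and fibroblasts, also 15, summed to 1507, 1228 and 3215 CPM and to 2869, 1930 and 1968 CPM, with 9 of 15 in that order. None of the 11 hepatocyte markers had it, and their sum was lowest among FOXA2f/f libraries in replicate 4 (118000 CPM) and highest in replicate 2 (165900 CPM). Most of these 2 sums was Alb, at 89390 and 124600 CPM. Without the TMM adjustment described under the processing, the same sums were closer, at 131100 and 144200 CPM. All 15 macrophage markers, all 15 stellate markers and all 11 hepatocyte markers passed the filter, and 0 of each list were called. The 11 lymphocyte markers summed to between 19.6 and 85.5 CPM in FOXA2f/f and between 45.1 and 76.3 in FOXA2H-KO, nearly all of it Ptprc (CD45), a gene of all leukocytes that macrophages also express, at 37.7, 18.0 and 77.1 CPM and at 68.1, 54.7 and 40.2 CPM. The T cell gene Cd3e was at 0.350 CPM or less. Without FOXA2f/f replicate 2 the ratio of the FOXA2H-KO to the FOXA2f/f mean was 0.902 for macrophage, 0.955 for stellate and 0.951 for lymphocyte markers, and without FOXA2f/f replicate 4 it was 1.945, 1.65 and 1.95. Their part in the endothelial result was not tested.

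Cholangiocyte markers followed another order, at 367.3, 174.4 and 231.2 CPM in FOXA2f/f and at 707.7, 252.1 and 588.1 CPM in FOXA2H-KO, almost all of it Spp1. The sum therefore describes Spp1 rather than the 7 markers together, and which cells gave the Spp1 counts was not tested. Spp1, Epcam, Sox9 and Cldn4 overlapped between the groups. Krt19 was low, at 1.42, 0.987 and 1.14 and at 3.38, 1.44 and 1.85 CPM. Krt7 was at 1.12, 0.548 and 1.21 and at 2.83, 1.36 and 1.71 CPM. Both were higher in every FOXA2H-KO library, which makes 2 of the 6 tested markers, against 10.5% of all genes apart in either direction. Lymphatic and mesothelial markers were low, between 4.11 and 8.93 CPM in FOXA2f/f and between 5.57 and 26.4 in FOXA2H-KO, and Mmrn1, of lymphatic endothelium, did not exceed 0.601 CPM. Red blood cell markers summed to between 46.5 and 86.0 CPM in FOXA2f/f and between 29.5 and 38.3 in FOXA2H-KO. Most of this was Alas2, an enzyme of haem synthesis that shares 15.5% of its exonic bases with other annotated genes, at 35.7, 82.0 and 43.2 CPM and at 26.1, 19.4 and 25.7 CPM, whereas the 4 haemoglobin genes overlapped between the groups. None of these lists held a called gene.

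**Figure D4:**
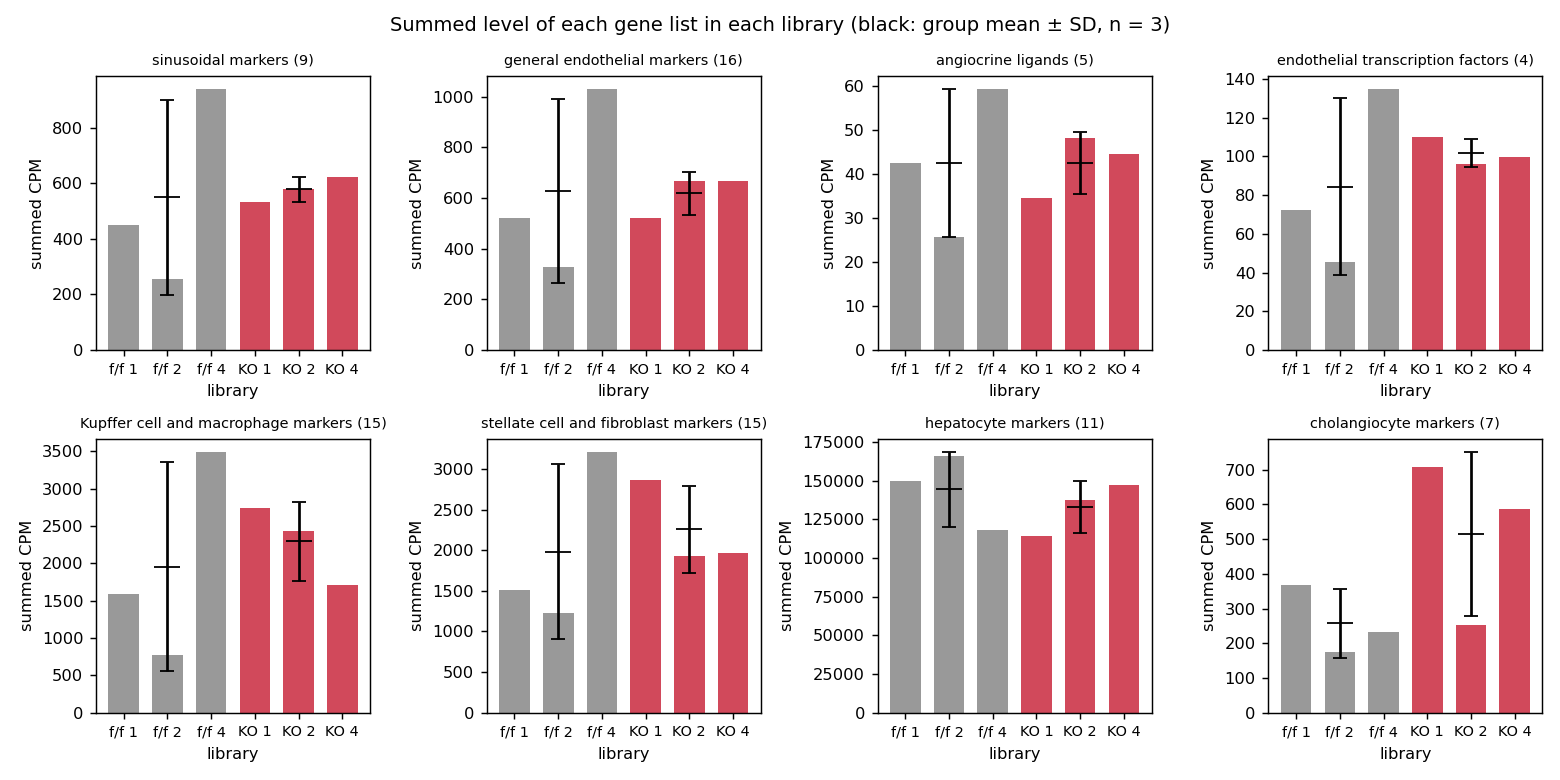
Summed CPM of each list in each library (bars), with the mean ± SD of each group (black, n = 3), for the 4 endothelial roles and 4 other cell types. Sinusoidal markers ran from 257.3 to 939.9 CPM within FOXA2f/f and from 531.5 to 622.3 within FOXA2H-KO, and macrophage and stellate markers were also highest in FOXA2f/f replicate 4 and lowest in replicate 2.

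Which FOXA2f/f libraries were counted decided the direction. Replicate 4 was the highest library for 31 of the 34 genes and replicate 2 the lowest for 30. Leaving either out therefore shifts most estimates in a direction known beforehand, with 2 FOXA2f/f libraries left. The counts of genes in these fits are a description. Without FOXA2f/f replicate 4, 33 of the 34 members were above 0 with a median log2 fold change of 0.54, and the exception, Gata4, was at -0.03. Of the 34, 13 then had an unadjusted p under 0.05, against 16.6% of all genes in that fit, and 0 were called. These were the sinusoidal markers Stab1, Lyve1, Oit3, Gpr182 and Ehd3, the general markers Cdh5, Clec14a, Eng, Ptprb and Ramp2, the ligands Wnt2 and Wnt9b, and Maf. The largest estimate was 1.38 ± 0.257 (SE) for Wnt2, at an edgeR adjusted p of 0.192, the smallest of the 34. Without FOXA2f/f replicate 2 the direction was the opposite, with 5 members above 0 (Wnt2, Lyve1, Wnt9b, Maf and Ramp2), a median of -0.37 and only Kdr at an unadjusted p under 0.05 (-0.585 ± 0.235 SE, edgeR adjusted p = 0.841). Leaving out FOXA2H-KO replicate 1 also turned the sign of the median, to 0.05 with 22 above 0, while without FOXA2f/f replicate 1, FOXA2H-KO replicate 2 or FOXA2H-KO replicate 4 it was -0.14, -0.11 and -0.11.

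To look at the genes relative to the amount of endothelial RNA, each was expressed as a percent of the summed general endothelial markers, leaving the gene itself out. On this scale 4 of the 34 genes had groups that did not overlap. Over all genes tested, each divided by the full sum of the 16 general markers, the share was 3%. That sum ranged from 328.3 to 1031 CPM within FOXA2f/f and from 521 to 668.1 within FOXA2H-KO. Genes that do not vary with it therefore gain a wide FOXA2f/f range from the division. Before the division 10.5% of all genes and 0 of the 34 were apart, so the 3% cannot measure enrichment. Wnt2 was at 0.330%, 0.468% and 0.413% in FOXA2f/f and at 0.819%, 0.630% and 0.640% in FOXA2H-KO, so that the ratio of the means was 1.73. Dll4 was at 0.710%, 0.902% and 0.808% and at 0.473%, 0.618% and 0.549%, a ratio of 0.678. In Wnt2 every FOXA2H-KO library was above every FOXA2f/f library, and in Dll4 every one was below.

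Maf was at 9.37%, 8.40% and 8.76% and at 16.8%, 10.3% and 11.2%, a ratio of 1.44, with FOXA2H-KO replicate 1 well above the others. That library also had the highest ratio of macrophage to general endothelial markers, 5.26, against 2.34 to 3.65 in the other 5, and its part in the Maf value was not tested. Ramp2 was at 1.26%, 1.13% and 1.41% and at 2.04%, 1.72% and 1.59%, a ratio of 1.41. Bmp2, Wnt9b, Rspo3 and Gata4 overlapped between the groups, as did all 9 sinusoidal markers. The scale was chosen after the common pattern was seen, and these values are a description with no test.

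**Figure D5:**
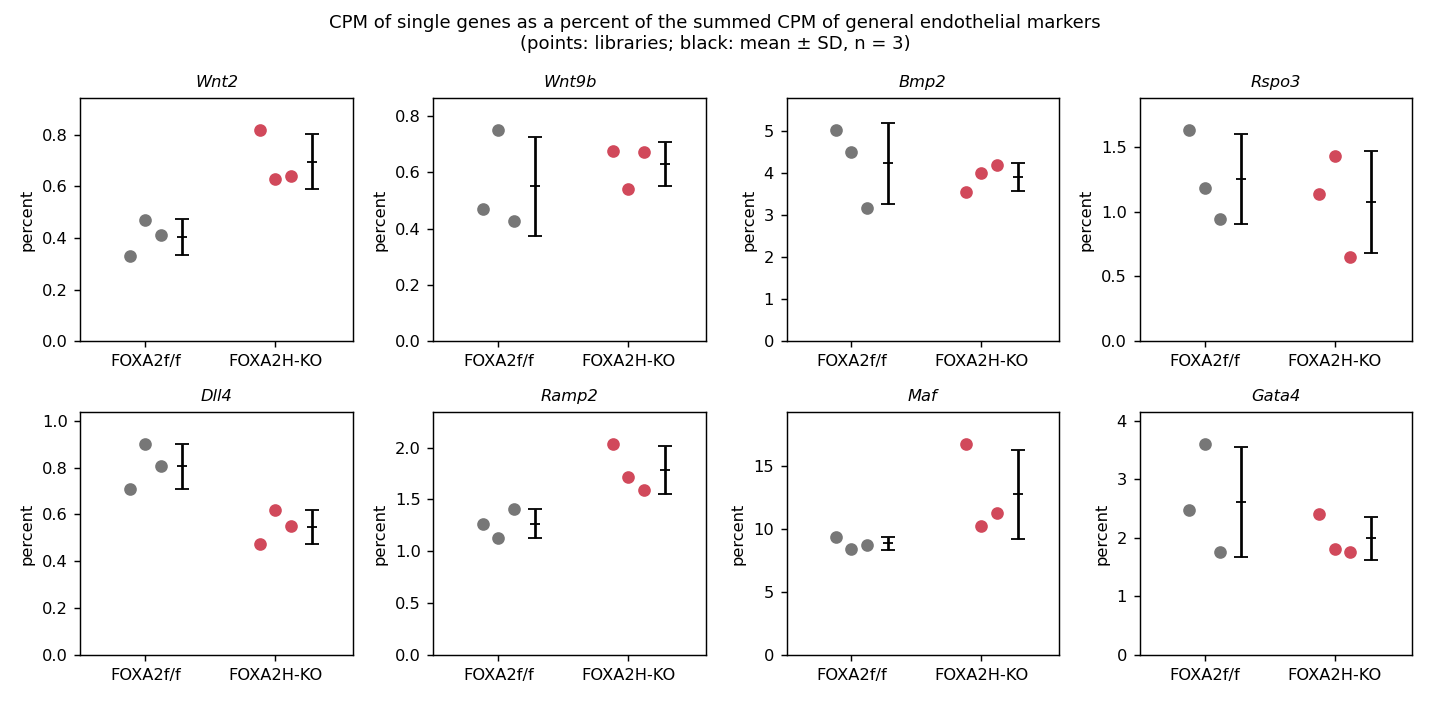
CPM of 8 genes as a percent of the summed CPM of the general endothelial markers, by library (points), with mean ± SD (n = 3). Wnt2, Ramp2 and Maf are higher and Dll4 lower in all 3 FOXA2H-KO libraries, whereas Wnt9b, Bmp2, Rspo3 and Gata4 overlap.

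A fit with an endothelial score as a covariate was also added after seeing the data. The score was the log2 summed CPM of 28 other endothelial genes that are not among the 34. Those sums were 432.5, 280 and 780.1 CPM in FOXA2f/f and 539.2, 584.7 and 579.9 CPM in FOXA2H-KO. Vcam1 alone gave 80.1, 41.8 and 191.3 and then 178.9, 180.0 and 182.2 CPM of them. Its part in the score was not tested. The fit called 0 of the 34. At an unadjusted p under 0.05 were 6 (6.4% of all genes), namely Dll4 (-0.75 ± 0.249 SE), Egfl7 (-0.42 ± 0.171), Gata4 (-0.34 ± 0.138), Kdr (-0.44 ± 0.152), Stab2 (-0.33 ± 0.113) and Wnt2 (0.58 ± 0.241), and the smallest edgeR adjusted p was 0.645. The median of the 34 was -0.26, with 6 above 0. The SE of each of these genes was smaller than without the score, for Stab2 0.113 against 0.412.

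Most other sinusoidal and endothelial genes had the same highest and lowest libraries. Of 16 further sinusoidal genes all were tested, 0 were called in either direction, 0 had an unadjusted p under 0.05, and the median log2 fold change was 0.11. Their smallest p-values belonged to Cd36, a fatty acid and thrombospondin receptor (0.21 ± 0.16 SE), and Cdh13, T-cadherin (0.38 ± 0.42). Among 28 other endothelial genes 27 were tested and 0 called, with a median of -0.01. Cldn5, a tight junction protein of continuous endothelium, was at -0.52 ± 0.29, and Cd34, a sialomucin of capillaries that sinusoids normally show little of, at 0.59 ± 0.34. Cd34 was at 7.09, 4.22 and 11.3 CPM in FOXA2f/f and at 12.8, 9.30 and 12.1 in FOXA2H-KO, overlapping through FOXA2f/f replicate 4. Without that library the log2 fold change of Cd34 was 1.00 ± 0.27 (SE, edgeR adjusted p = 0.202). Without FOXA2f/f replicate 2 it was 0.31 ± 0.25 (edgeR adjusted p = 0.992). Cldn5 was at -0.353 ± 0.305 (SE) without FOXA2f/f replicate 4 and at -0.73 ± 0.237 without replicate 2. FOXA2f/f replicate 4 was highest and replicate 2 lowest for 13 of the 16 and for 19 of the 27 genes.

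The pathways through which the ligands and receptors act were read from fixed lists. In the VEGF, angiopoietin and Notch pathway 17 of 23 genes were tested and 0 called. Only 1 had an unadjusted p under 0.05, against 5.17% of all genes. This was Esm1, a proteoglycan that VEGF induces in endothelial tip cells, at 6.06, 3.18 and 15.4 CPM in FOXA2f/f and at 1.21, 3.41 and 2.68 in FOXA2H-KO (log2 fold change -1.76 ± 0.61 SE, edgeR adjusted p = 0.836). FOXA2f/f replicate 4 was its high library, and replicate 2 lay inside the FOXA2H-KO range. Without FOXA2f/f replicate 4 the log2 fold change of Esm1 was -0.93 ± 0.47 (SE) and no longer at an unadjusted p under 0.05, and without replicate 2 it was -2.14 ± 0.50. Vegfa, the ligand that hepatocytes supply, was at 114.9, 70.4 and 89.8 and at 77.0, 64.9 and 71.9 CPM (-0.36 ± 0.19). Its groups overlapped through FOXA2f/f replicate 2. Without that library the log2 fold change of Vegfa was -0.52 ± 0.15 (SE, edgeR adjusted p = 0.531). Without FOXA2f/f replicate 4 it was -0.38 ± 0.21 (edgeR adjusted p = 0.399).

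BMP and Wnt pathway partners were tested for 16 of 17 listed genes, with 0 called and 1 at an unadjusted p under 0.05. Lgr4, the R-spondin receptor that hepatocytes express, was at 67.7, 78.3 and 65.7 CPM in FOXA2f/f and at 50.7, 55.7 and 55.1 in FOXA2H-KO, with every FOXA2H-KO library lower (-0.39 ± 0.12 SE, edgeR adjusted p = 0.794). Fzd4, a Wnt receptor, was at 24.0, 20.0 and 22.5 and at 24.2, 28.3 and 28.8 CPM, with every FOXA2H-KO library higher (0.29 ± 0.14). Of the 16 tested partners 1 was apart higher and 1 lower, against 10.5% of all genes apart in either direction. An unadjusted p under 0.05 was reached by 5.17% of all genes. Neither gene passed the test after adjustment.

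All 14 hepatocyte targets of BMP and Wnt ligands were tested and 0 were called. Only 1 had an unadjusted p under 0.05, against 5.17% of all genes. Oat, the pericentral ornithine aminotransferase, was at 26.1, 14.2 and 35.4 CPM in FOXA2f/f and at 89.9, 102.9 and 89.6 CPM in FOXA2H-KO. Every FOXA2H-KO library was more than 2-fold above every FOXA2f/f library. Oat was the only gene of the 14 whose groups did not overlap, against 10.5% of all genes apart in either direction. The log2 fold change was 1.89 ± 0.30 (SE, 95% interval 1.20 to 2.59), with an edgeR unadjusted p of 0.000277 and an adjusted p of 0.539. Without FOXA2f/f replicate 2 the log2 fold change of Oat was 1.61 ± 0.17 (SE, edgeR adjusted p = 0.0547). Without FOXA2f/f replicate 4 it was 2.22 ± 0.26 (edgeR adjusted p = 0.1225). Cyp2e1, the pericentral cytochrome P450 that activates CCl4, was at 1267, 290.9 and 1023 CPM and at 1685, 1415 and 1159 CPM (0.72 ± 0.48), with FOXA2f/f replicate 2 far below the others and the groups overlapping. Without that library the log2 fold change of Cyp2e1 was 0.31 ± 0.23 (SE), and without FOXA2f/f replicate 4 it was 0.865 ± 0.549. The median of the 14 genes was 0.09. The 10 basement membrane genes, all tested, had 0 called and a median of -0.01, and the 2 with the smallest p-values were Nid1 (0.28 ± 0.21) and Lamb2 (0.44 ± 0.41). Without FOXA2f/f replicate 4 they were at 0.52 ± 0.16 and 1.07 ± 0.27, and without replicate 2 at 0.13 ± 0.19 and 0.16 ± 0.36.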

How the data were processed

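Hepatocyte RNA of 6 mice (3 FOXA2f/f+CCl4, 3 FOXA2H-KO+CCl4; replicates 1, 2 and 4 of each) was analysed from one deposited table per library. The authors deposited, for each gene, whole-number read counts without normalization and FPKM, which scales them by gene length and library total. The poly(A) libraries were paired-end, made with a kit that does not mark strand. The submitters' processing notes name CASAVA 1.8, TopHat2 2.1.0, HTSeq, edgeR and build mm10. The counting mode and annotation are not given in the sources used here. The deposited FPKM follow from the counts, with one implied length per gene (largest relative spread 8.3e-05 over 12937 genes). The authors' comparison table was not used.

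The quasi-likelihood test of edgeR 4.0.16 (R 4.3.3) was run on the counts after the filterByExpr filter and TMM scaling, without a block, with Benjamini-Hochberg adjustment over 14417 genes and calls at an adjusted p under 0.05 and a 2-fold change. CPM were scaled to library totals after TMM adjustment, and intervals are 95% intervals of the fit. Single genes were also compared by exact two-sided permutation tests. Total counts were 20983455 to 28327765, and the precision was set by the spread between libraries and, in genes with few counts, also by counting error. The tests were checked on simulated counts. Alternatives were DESeq2 1.42.0, edgeR's exact test, library size or upper quartile scaling, other count filters (at least 1 count in any library, at least 10 in every library), limma 3.58.1 on log2(FPKM + 1), no fold threshold, the replicate number as a block and each library left out, with an endothelial score as a covariate, and pathway genes and list sums without FOXA2f/f replicate 2 or 4, added after seeing the data. Gene positions and exon overlaps came from GENCODE M21 on GRCm38, and promoters from RefSeq.

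The 34 genes and all other lists were chosen with earlier results of these data known. All 34 were named, with Foxa2 and, from each pathway list, the 2 tested genes with the smallest p and any called gene. Marker lists are given by summed level. One listed gene, Hjv, had no match, so 210 of 211 entries were read.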

Additional observations from a re-analysis of the deposited data

How the results depend on the processing

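No gene of the 34 was called under any alternative run, and 1 gene of the whole table, Foxa2, was called as reported. The number of genes called over the whole table was 75 with DESeq2, 64 with edgeR's exact test, 2 with the looser filter of 1 count in any library, 2 with the endothelial score as a covariate, and 0 with library size alone, with limma on log2(FPKM + 1), with the replicate block, and between 0 and 6 when 1 library was left out. Library size alone moved the median of all genes to 0.10, and the median of the 34 was then -0.02. The number of members above 0 was 28 with limma on log2(FPKM + 1), 25 with the replicate block, 6 with the covariate and 5 to 33 when 1 library was left out. The median of the 34 ran over -0.37 to 0.536 without 1 library, that of the sinusoidal markers over -0.301 to 0.637, of the general markers over -0.372 to 0.485, of the ligands over -0.27 to 0.244 and of the transcription factors over -0.389 to 0.569; FOXA2f/f replicate 2 gave the low end of each and FOXA2f/f replicate 4 the high end.

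Many estimates changed sign under some setting, among them the lowest, Dll4, and the cause was not tested. With limma on log2(FPKM + 1) the log2 fold changes that turned were Stab2 0.153, Clec4g 0.248, Gpr182 0.127, Flt4 0.12, Pecam1 0.047, Cdh5 0.232, Kdr 0.046, Flt1 0.009, Tie1 0.074, Esam 0.10, Aqp1 0.205, Robo4 0.063, Bmp2 0.128 and Erg 0.058. With the replicate block they were Stab2 0.07, Clec4g 0.175, Gpr182 0.046, Flt4 0.072, Cdh5 0.144, Tie1 0.007, Esam 0.035, Aqp1 0.086, Robo4 0.039, Bmp2 0.032 and Erg 0.165. With the covariate they were Oit3 -0.098, Fcgr2b -0.175, Ehd3 -0.071, Tek -0.153, Clec14a -0.035, Eng -0.075, Ptprb -0.138 and Nos3 -0.103, and with library size alone Bmp2 0.051. When 1 library was left out, the log2 fold changes that turned in at least one fit ranged as follows: Stab1 -0.008 to 0.929, Stab2 -0.476 to 0.494, Clec4g -0.51 to 0.62, Oit3 -0.205 to 0.778, Fcgr2b -0.301 to 0.514, Gpr182 -0.518 to 0.637, Flt4 -0.494 to 0.535, Ehd3 -0.182 to 0.869, Pecam1 -0.403 to 0.467, Cdh5 -0.376 to 0.619, Kdr -0.585 to 0.319, Flt1 -0.411 to 0.43, Tek -0.262 to 0.537, Tie1 -0.372 to 0.419, Clec14a -0.133 to 0.751, Eng -0.145 to 0.684, Esam -0.368 to 0.437, Emcn -0.421 to 0.096, Egfl7 -0.515 to 0.317, Ptprb -0.238 to 0.669, Aqp1 -0.372 to 0.442, Robo4 -0.405 to 0.502, Nos3 -0.236 to 0.769, Bmp2 -0.27 to 0.244, Rspo3 -0.526 to 0.088, Dll4 -0.821 to 0.032, Sox18 -0.689 to 0.495, Erg -0.426 to 0.644.

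Same-numbered libraries did not deviate together (correlations over genes of -0.0688, 0.0262 and -0.226 for numbers 1, 2 and 4), so the numbers were not taken to pair the mice. With the replicate block the median of the 34 was 0.115, and Lyve1 was the only member at an unadjusted p under 0.05. A fit without 1 library leaves 2 in its group. With 3 mice per group and a 3.25-fold median range within FOXA2f/f, most intervals reached past a 2-fold change, and counting error adds to this in low genes such as Nos3, with 16 counts in its lowest library.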
